A study of Mus musculus with 15 samples.

Results

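The genes described here build the junction that holds the basal layer of a stratified epithelium to its basement membrane: Itga6, Itgb4, Itga3, Col17a1, Dst, Plec, Lama3, Lamb3 and Col7a1. They were chosen by name as genes of the hemidesmosome, of laminin-332 and the integrins that bind it, and of the anchoring fibrils, and they are 9 of the 23420 mouse genes counted. All 9 were found under their symbols and all 9 passed the filter on low counts in every comparison. The libraries came from mice at postnatal day 1. The knockout (KO) group was -/- for the genes Tmprss11a to Tmprss11g, and the wild-type (WT) group was labelled wildtype. The strain entry of both groups names only this gene cluster, and the labels give no background strain. There were 4 KO and 3 WT epidermis libraries, and 4 KO and 4 WT tongue libraries. By their animal numbers the 15 libraries came from 9 pups, 6 of which gave both tissues, among them all 4 KO pups. Epidermis had been peeled from dermis after heating in EDTA, while tongue was taken whole, with its muscle and connective tissue. The comparisons ask whether loss of the HAT/DESC proteases goes with a change in the anchorage genes, and how their levels differ between peeled epidermis and a whole organ.

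Hemidesmosomes are rivets at the lower face of basal keratinocytes. Inside the cell, plectin and BPAG1 tie keratin filaments to the membrane proteins integrin α6β4 and type XVII collagen, which bind laminin-332 outside. Laminin-332 is in turn held to the dermis by anchoring fibrils of type VII collagen. Inherited loss of these proteins in humans gives the blistering disease epidermolysis bullosa. Fewer basal cells in a sample and less RNA per basal cell cannot be told apart in bulk libraries such as these.

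The libraries held between 10117938 reads on genes (epidermis WT 1) and 17819847 (tongue KO 4). Epidermis WT 1 stood apart with 44.6% of its reads on the mitochondrial ribosomal RNAs, against 20.1% and 23.8% in the other WT epidermis libraries and 20.8% to 22.8% in KO epidermis. Tongue had more of these RNAs than the other 6 epidermis libraries, at 36.6% to 38.1% in KO and 35.5% to 40.8% in WT tongue. Without them in the fit, 9 of 9 anchorage genes were still called higher in epidermis in both genotypes. Of all genes in that fit, 5032 of 16410 were called higher in KO and 5174 of 16516 in WT pups. Tongue KO 3 also stood apart in its gene profile. As a check of the labels, Tmprss11a averaged 80.7 ± 5.8 CPM in KO tongue and 229 ± 8.6 CPM in WT tongue (SD, n = 4 each), a log2 fold change of -1.52 with an adjusted p of 2.3e-05, and Tmprss11b had a log2 fold change of -2.04 with an adjusted p of 0.00012. The other 4 protease genes analysed passed no threshold in tongue, none of the 6 analysed did in epidermis, and reads of the targeted genes remained in all KO libraries. The labelled tissues matched their markers. Summed over 10 suprabasal keratinocyte genes, levels were 36779 to 61033 CPM in KO epidermis, against 1024 to 1354 CPM in KO tongue, and 32396 to 53598 CPM in WT epidermis, against 1172 to 1313 CPM in WT tongue. Summed over 10 skeletal muscle genes, they were 110.2 to 758 CPM in KO epidermis, against 34314 to 55858 CPM in KO tongue, and 114 to 287 CPM in WT epidermis, against 31086 to 54983 CPM in WT tongue.

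All 9 anchorage genes were higher in epidermis than in tongue, in KO pups and again in WT pups, on the TMM and RLE scales, while scaling to basal keratinocyte genes turned 5 of them below 0 in KO and 4 in WT pups. The integrin β4 gene differed most, by 6.95-fold in KO and 8.10-fold in WT pups, and the smallest differences were those of the plectin gene in KO pups, 1.89-fold, and of the integrin α6 gene in WT pups, 1.98-fold. Between genotypes, none of the 9 passed the threshold in either tissue. Promoter stretches of 3 of the 9 genes are shown here as a description, and shared control of the genes was not tested. The set of RefSeq (GRCm38.p6) windows at hand covered 5 of the 9 genes, Dst, Lamb3, Itga3, Col7a1 and Col17a1, with 8 windows in all. Those shown are Dst, which has separate starts for different isoforms, and the pair of collagens, 1 of the membrane and 1 of the fibrils. Each runs 5′ to 3′ on the strand of the gene over the 250 bases before the RefSeq start, and for Col17a1 over the 198 of these that precede its first annotated exon. The positions are chr1:34011345-34011594 and chr1:34160010-34160259 on the plus strand for Dst, chr9:108953336-108953585 on the plus strand for Col7a1, and chr19:47692095-47692292 on the minus strand for Col17a1. Capitals mark matches, on either strand, to 4 short motifs whose letters are given after the sequences, and no matches overlapped each other in these stretches.
Dst start 1: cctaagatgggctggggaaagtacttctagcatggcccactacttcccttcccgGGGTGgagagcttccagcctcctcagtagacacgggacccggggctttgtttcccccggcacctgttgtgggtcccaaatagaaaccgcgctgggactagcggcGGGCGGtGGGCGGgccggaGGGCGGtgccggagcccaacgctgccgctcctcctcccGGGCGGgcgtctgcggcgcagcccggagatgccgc
Dst start 2: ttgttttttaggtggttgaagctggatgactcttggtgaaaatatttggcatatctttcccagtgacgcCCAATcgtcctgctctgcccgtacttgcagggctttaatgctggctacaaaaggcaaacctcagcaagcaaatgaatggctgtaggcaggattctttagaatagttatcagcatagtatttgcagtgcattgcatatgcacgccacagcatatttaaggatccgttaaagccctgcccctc
Col7a1: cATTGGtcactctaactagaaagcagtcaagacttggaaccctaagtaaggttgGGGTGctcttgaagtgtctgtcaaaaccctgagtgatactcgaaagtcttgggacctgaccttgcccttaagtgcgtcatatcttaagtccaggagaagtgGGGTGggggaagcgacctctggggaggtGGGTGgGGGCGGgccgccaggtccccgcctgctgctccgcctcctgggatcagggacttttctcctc
Col17a1: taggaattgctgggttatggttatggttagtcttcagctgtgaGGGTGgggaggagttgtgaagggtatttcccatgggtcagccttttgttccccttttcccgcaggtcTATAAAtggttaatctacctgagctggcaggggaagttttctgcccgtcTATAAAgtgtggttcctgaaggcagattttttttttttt

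The pair of Dst starts differed in make-up. The upstream start had 68.8% G and C and 4 GC boxes (letters GGGCGG), the downstream start had 45.2% G and C and none, and the median over the 32851 windows of all genes was 52.4%. In GENCODE release M21, 3 coding transcripts begin within 300 bases of each. The Col17a1 stretch held 2 matches to TATAAA, the TATA box, and of all 8 windows of the anchorage genes only that of Col17a1 held any, against 12.4% of the windows of all genes. GC boxes were found in 4 of the 8 windows, against 32.7% of all windows. Matches to CCAAT were also found in 4 of 8, against 33.8% of all. Those to CACCC were found in 5 of 8, against 52% of all. The AP-1 motif TGANTCA had a match in 0 of 8 windows, against 6.75% of all. These matches describe letters, and no binding was measured.

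The hemidesmosomal integrin is the pair of α6 and β4 chains, and of the 9 genes Itgb4 had the largest difference between tissues in both genotypes. Itgb4 (ENSMUSG00000020758, chromosome 11, 115974709 to 116008412, GRCm38) encodes the chain with the long tail that binds plectin. It read 176, 156, 143 and 234 CPM in KO epidermis, against 17.0, 20.8, 49.8 and 14.9 CPM in KO tongue. In WT epidermis it read 171, 178 and 118 CPM, against 15.7, 22.7, 15.7 and 20.5 CPM in WT tongue. The tissues did not overlap in either genotype, and the high KO tongue value belonged to library KO 3. CPM here are counts relative to a library size scaled with TMM factors over all 15 libraries. With edgeR's quasi-likelihood test and Benjamini-Hochberg adjustment over all genes tested, which hold for every adjusted p in this account, the log2 fold change of epidermis over tongue was 2.80 (95% interval 1.98 to 3.61, adjusted p = 5.85e-05) in KO pups. It was 3.02 (2.55 to 3.49, adjusted p = 2.34e-06) in WT pups.

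Itga6 (ENSMUSG00000027111, chromosome 2, 71745616 to 71858416) encodes the α6 chain, which pairs with β4 in hemidesmosomes and with β1 elsewhere, and its difference was smaller. It read 231, 222, 394 and 322 CPM in KO epidermis, against 117, 116, 123 and 108 CPM in KO tongue. In WT pups the values were 227, 270.3 and 277 CPM in epidermis, against 119, 127, 124 and 135 CPM in tongue. Every epidermis library lay above every tongue library, and the tongue values were tight, with coefficients of variation of 5.29% in KO and 5.36% in WT tongue. The log2 fold change was 1.33 (0.91 to 1.74, adjusted p = 7.89e-05) in KO and 0.99 (0.68 to 1.30, adjusted p = 0.000208) in WT pups.

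Itga3 (ENSMUSG00000001507, chromosome 11, 95044474 to 95076801) encodes the α3 chain of α3β1, a laminin-332 receptor at the basal and lateral cell faces that is not a hemidesmosome component. Its level was 62.6, 67.5, 94.2 and 125 CPM in KO epidermis, against 21.4, 11.5, 25.5 and 14.1 CPM in KO tongue. WT epidermis gave 39.1, 78.1 and 63.9 CPM, against 18.6, 16.3, 9.49 and 13.4 CPM in WT tongue. Its mean level per length was the lowest of the 9 genes in all 4 groups, but its range overlapped that of the next gene in each. In single libraries the order turned, as in tongue WT 1, with 3.25 CPM per kilobase for Itga3 and 2.23 for Itgb4. Itga3 did not overlap between tissues. As a log2 fold change the difference was 2.27 (1.63 to 2.90, adjusted p = 3.05e-05) in KO and 2.02 (1.42 to 2.61, adjusted p = 0.000141) in WT pups.

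Type XVII collagen, the transmembrane collagen also called BP180, comes from Col17a1 (ENSMUSG00000025064, chromosome 19, 47646344 to 47692094). It read 479, 485, 667 and 638 CPM in KO epidermis, against 116, 119.8, 185 and 120.4 CPM in KO tongue. WT epidermis had 341.8, 580.2 and 473 CPM, against 113, 129, 112 and 136 CPM in WT tongue. The tissues were well apart, with the lowest KO epidermis library at 2.60 times the highest KO tongue library and the lowest WT epidermis library at 2.52 times the highest WT tongue library. On the log2 scale the difference was 2.06 (1.61 to 2.52, adjusted p = 4.45e-06) in KO and 1.87 (1.44 to 2.31, adjusted p = 2.82e-05) in WT pups.

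The plaque proteins inside the cell, BPAG1 and plectin, had, with Itga6, the smallest differences of the 9. Dst (ENSMUSG00000026131, chromosome 1, 33908225 to 34308661) encodes BPAG1, whose epithelial form sits in hemidesmosomes while longer forms are made in nerve and muscle. Dst read 1278, 862, 2200.3 and 2049 CPM in KO epidermis, against 508, 690.3, 967 and 626 CPM in KO tongue. In WT pups it read 1569, 1337 and 1188 CPM in epidermis, against 446, 590.3, 614 and 725 CPM in tongue. KO epidermis library 2 fell below KO tongue library 3, so the KO groups overlapped, and the WT groups did not. The log2 fold change was 1.19 (0.51 to 1.86, adjusted p = 0.00531) in KO and 1.16 (0.65 to 1.67, adjusted p = 0.00166) in WT pups.

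Plec (ENSMUSG00000022565, chromosome 15, 76170974 to 76232574) encodes plectin, which binds integrin β4 and keratins in epithelia and also anchors the sarcomere's Z disks in muscle. Its values were 494, 556, 445 and 573 CPM in KO epidermis, against 172, 215, 532 and 175 CPM in KO tongue. In WT pups they were 291, 626 and 339.9 CPM in epidermis, against 172, 239, 174 and 197 CPM in tongue. Tongue KO 3 lay above 2 of the 4 KO epidermis libraries, and the other 3 KO tongue libraries lay below all of them. The log2 fold change was 0.92 (0.18 to 1.65, adjusted p = 0.0322) in KO and 1.04 (0.45 to 1.63, adjusted p = 0.00642) in WT pups. In KO pups the call was lost when epidermis KO 2 or KO 4, or tongue KO 1, KO 2 or KO 4, was left out, with log2 fold changes of 0.74 to 0.88 and adjusted p from 0.0609 to 0.0930, and without tongue KO 3 the log2 fold change was 1.45. In WT pups it was 0.63 (adjusted p = 0.0233) without epidermis WT 2. Counts per gene do not separate the isoforms of Dst or Plec. The skeletal muscle genes, whose summed levels are given above, were lower in epidermis in 10 of 10 cases in both genotypes, and their part in the Dst and Plec differences was not tested.

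Laminin-332, the ligand of both integrins, is built of chains that include α3 and β3. Lama3 (ENSMUSG00000024421, chromosome 18, 12333819 to 12583013), the α3 chain gene, read 287, 276, 398 and 409 CPM in KO epidermis, against 74.4, 68.7, 90.2 and 71.1 CPM in KO tongue. It read 323, 326 and 296 CPM in WT epidermis, against 64.7, 66.7, 79.6 and 77.9 CPM in WT tongue. No library of either tissue came near the other, and the lowest epidermis library was 3.06 times the highest tongue library in KO and 3.72 times in WT pups. The log2 fold change was 2.16 (1.76 to 2.56, adjusted p = 9.82e-07) in KO and 2.08 (1.74 to 2.42, adjusted p = 2.98e-06) in WT pups. Lamb3 (ENSMUSG00000026639, chromosome 1, 193207699 to 193343878), the β3 chain gene, read 124, 96.2, 184 and 166 CPM in KO epidermis, against 33.0, 32.3, 48.6 and 35.7 CPM in KO tongue. It read 62.4, 137 and 103 CPM in WT epidermis, against 28.5, 32.1, 32.1 and 35.6 CPM in WT tongue. Its groups did not overlap, and the log2 fold change was 1.93 (1.45 to 2.40, adjusted p = 1.07e-05) in KO and 1.60 (1.09 to 2.11, adjusted p = 0.000208) in WT pups. Hsd11b1 and G0s2 lie on the opposite strand within the span of Lamb3 and had at most 240 and 117 reads in a library, and strand was not recorded as far as the labels state.

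Col7a1 (ENSMUSG00000025650, chromosome 9, 108953586 to 108984875) encodes type VII collagen, the anchoring fibril. It read 229.6, 289, 199 and 272 CPM in KO epidermis, against 44.5, 46.0, 81.6 and 50.2 CPM in KO tongue. WT epidermis had 221, 282 and 175 CPM, against 48.3, 46.2, 44.2 and 48.3 CPM in WT tongue. The WT tongue libraries were nearly alike, with a coefficient of variation of 4.21%, and tongue KO 3 alone rose above the KO tongue range. Epidermis over tongue gave a log2 fold change of 2.15 (1.67 to 2.64, adjusted p = 5.05e-06) in KO and 2.22 (1.83 to 2.62, adjusted p = 4.95e-06) in WT pups.

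**Figure D1:**
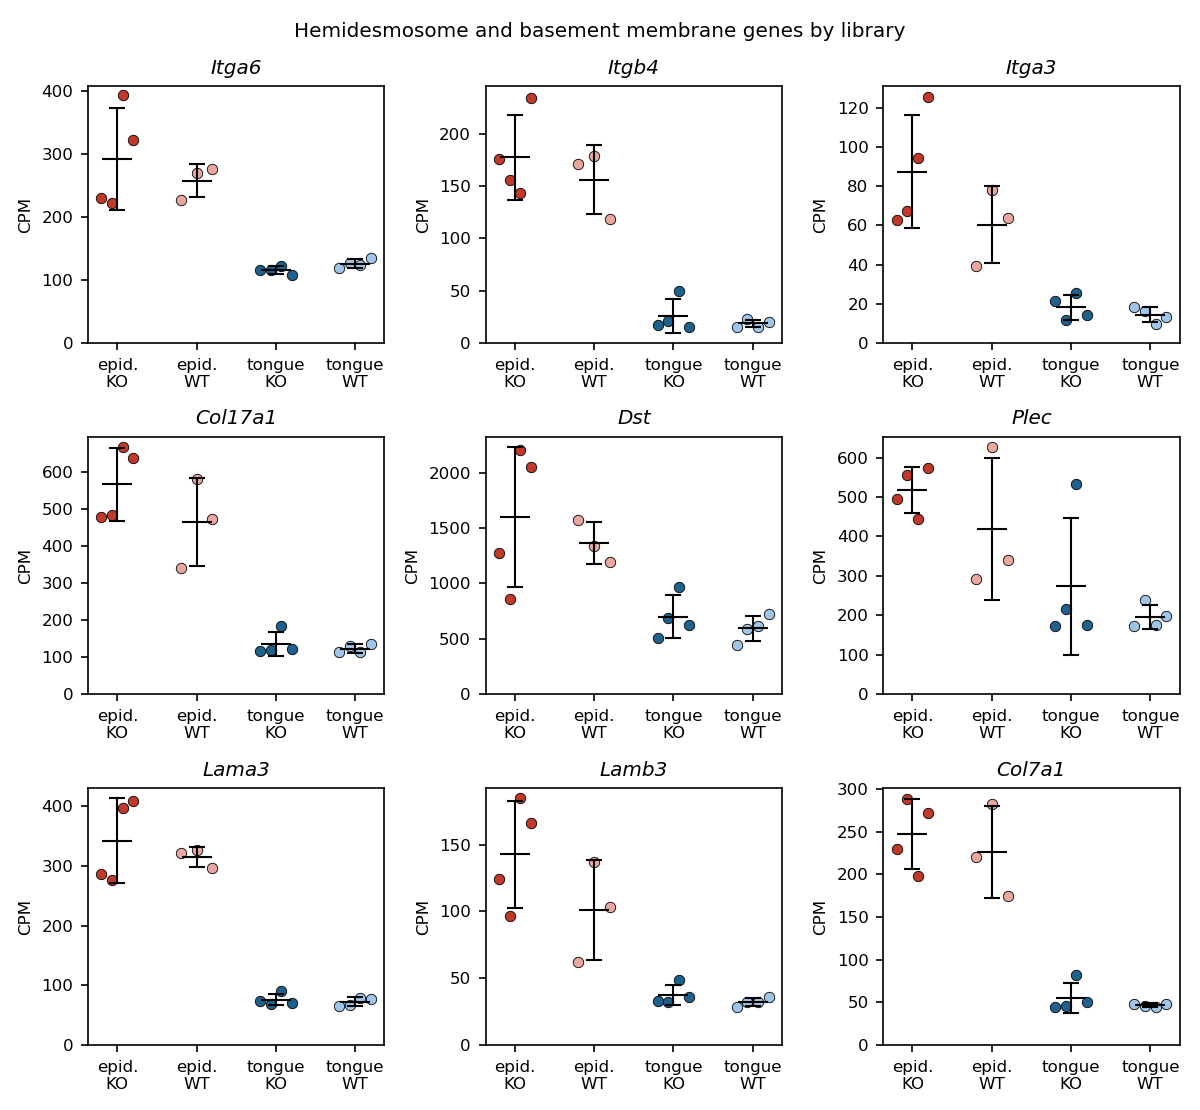
Level in CPM (y axis, linear) of the 9 anchorage genes in each library, by group, with points for libraries, long bars for means and whiskers for SD. Epidermis points lie above tongue points for every gene apart from Dst and Plec in KO pups, where tongue KO 3, at 967 and 532 CPM, reaches into the KO epidermis range.

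Counted together, 9 of 9 genes were called higher in epidermis in both genotypes on the TMM scale. Over all genes tested, the share called higher was 32.7% in KO and 32% in WT pups, the share called lower was 31.1% in KO and 31.6% in WT pups, and the share called in either direction was 63.8% in KO and 63.6% in WT pups. The median log2 fold change of the 9 was 2.06 in KO and 1.87 in WT pups, and over all genes tested it was 0.07 in KO and 0.03 in WT pups. Of genes at a mean of at least 1 CPM, 30.3% had every KO epidermis library above every KO tongue library and 34.2% had the like in WT pups, and of the anchorage genes 7 did in KO and 9 in WT pups. Without epidermis WT 1 the median of the 9 in WT pups was 2.04, and without tongue KO 3 the median in KO pups was 2.24. All 9 were called higher in each of these cases, against 5995 of 17076 genes in WT pups without epidermis WT 1 and 5357 of 16984 in KO pups without tongue KO 3.

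**Figure D2:**
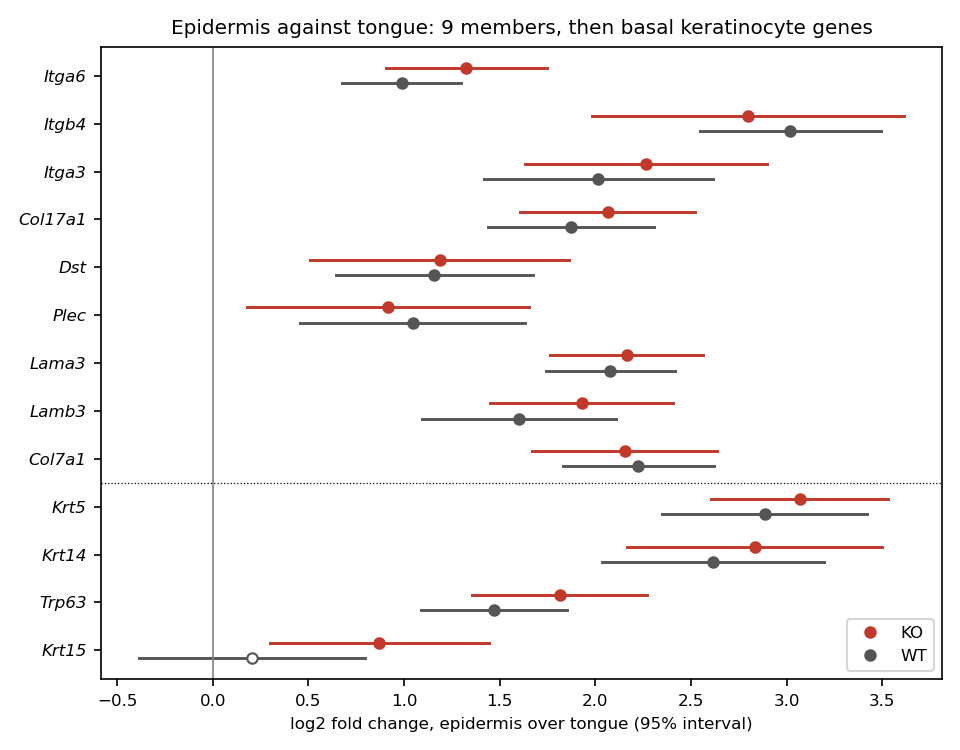
Log2 fold change of epidermis over tongue (x axis) with 95% intervals in KO (red) and WT (grey) pups, for the 9 anchorage genes above the dotted line and for 4 basal keratinocyte genes below it. Filled points passed the threshold, and of those shown only Krt15 in WT pups did not. The 9 genes run from 0.92 (Plec, KO) to 3.02 (Itgb4, WT) on this TMM scale, and scaled to the basal genes 5 lay below 0 in KO and 4 in WT pups.

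Whether the anchorage genes differed more than the basal keratinocyte genes depended on the basal gene used. Krt5 and Krt14, the keratins of basal keratinocytes, averaged 2159 ± 145 and 1804 ± 624 CPM in KO epidermis, against 257 ± 41.0 and 253 ± 72.8 CPM in KO tongue (SD, n = 4). Their log2 fold changes were 3.07 and 2.83 in KO pups and 2.88 and 2.62 in WT pups. No anchorage gene in KO pups and only Itgb4 in WT pups exceeded these. Trp63, the master transcription factor of the basal layer, had 1.81 in KO and 1.47 in WT pups, and 6 of the 9 exceeded it in both. Krt15, a further basal keratin, had 0.87 in KO and 0.21 in WT pups, not called in WT pups with an adjusted p of 0.51, and 9 of 9 exceeded it. When libraries were scaled to the geometric mean of these 4 genes, the median over all genes moved to -2.06 in KO and -1.70 in WT pups, and 3 of the 9 genes were called in each genotype, against 90.4% of all genes in KO and 77.9% in WT pups. Of all genes, 86.5% were called lower in KO pups, and 73.2% were called lower and 4.75% higher in WT pups. On this scale Itga6 and Plec were lower in epidermis in both genotypes, with log2 fold changes of -0.82 and -1.17 in KO and -0.74 and -0.75 in WT pups. Dst was lower in KO pups at -0.95, with -0.50 and an adjusted p of 0.171 in WT pups. Itgb4 was higher in WT pups at 1.34 (adjusted p = 0.00209), with 0.72 and an adjusted p of 0.0581 in KO pups. The other 5 genes lay between -0.21 and 0.14 in KO pups and between -0.21 and 0.51 in WT pups, with no call. Read against the median of all genes on that scale, all 9 lay above it in both genotypes.

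**Figure D3:**
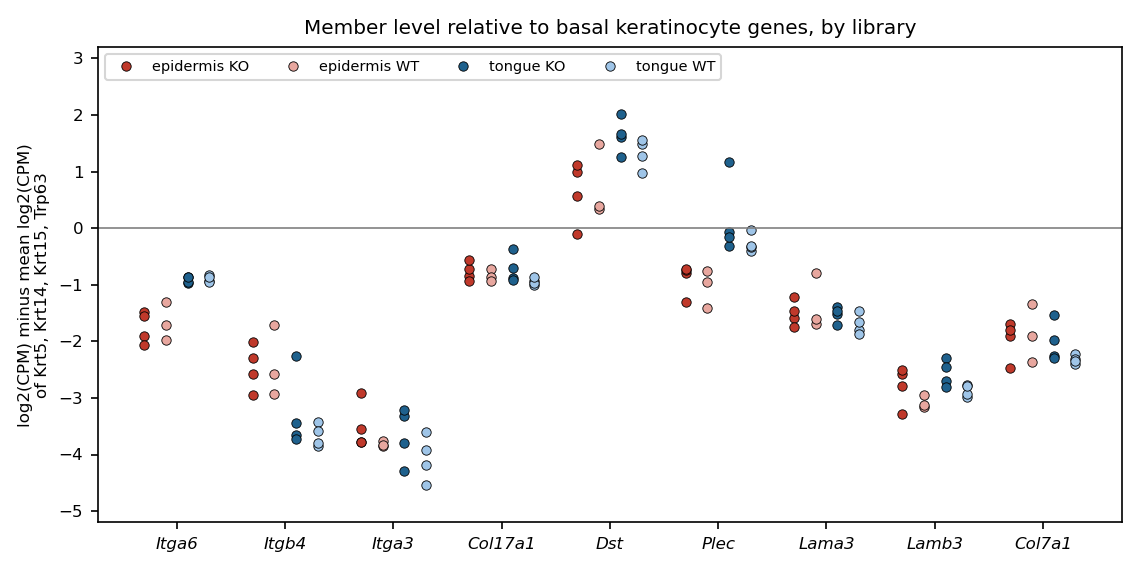
Log2 CPM of each anchorage gene minus the mean log2 CPM of Krt5, Krt14, Krt15 and Trp63 in the same library (y axis), by group. Itga6 and Plec sit higher in tongue on this scale, Dst does so with an overlap in WT pups, Itgb4 sits higher in epidermis apart from tongue KO 3, and the other genes overlap between tissues.

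Levels between genes are compared per kilobase of all annotated exons. That length includes exons of isoforms other cell types use, so it understates Dst and Plec. Col17a1 was the highest of the 9 in every group, at 94.4 ± 16.5 CPM per kilobase in KO epidermis, 22.5 ± 5.49 in KO tongue, 77.4 ± 19.9 in WT epidermis and 20.4 ± 1.92 in WT tongue (SD, n = 4, 4, 3 and 4). Its range did not touch that of the next gene, Dst, in epidermis of either genotype or in WT tongue, and in KO tongue the ranges overlapped. In epidermis the ranges of all further neighbours in the order overlapped. They ran from Dst at 38.8 ± 15.4 to Itga3 at 15.3 ± 5.05 CPM per kilobase in KO epidermis, and from 33.2 ± 4.66 to 10.6 ± 3.46 in WT epidermis. In tongue there was a step. Dst, Plec and Itga6 had means of 12.8 to 17.0 CPM per kilobase in KO tongue and 10.8 to 14.4 in WT tongue. The other 5 genes below Col17a1 had 3.18 to 7.08 in KO tongue and 2.53 to 6.72 in WT tongue. Itga6 and Lama3 did not overlap in KO tongue, nor did Plec and Lama3 in WT tongue. WT tongue had further gaps among these genes, between Lama3 and Lamb3 and between Col7a1 and Itgb4.

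RNA of the α6 chain was set against that of its β4 partner within each library. Tongue was taken whole and α6 also pairs with β1, so the tongue ratios are not those of basal cells alone. The part of other cells in these ratios was not tested. Per kilobase, the ratio of Itga6 to Itgb4 was 1.02, 1.11, 2.14 and 1.07 in KO epidermis, against 5.34, 4.34, 1.92 and 5.63 in KO tongue. It was 1.03, 1.18 and 1.82 in WT epidermis, against 5.89, 4.33, 6.11 and 5.11 in WT tongue. The WT groups did not overlap, and in KO pups tongue KO 3 lay within the epidermis range. In two-sided exact permutation tests the p was 0.0571 in WT pups, the smallest that 3 against 4 libraries can give, and also 0.0571 in KO pups. Col17a1 to Itgb4 had geometric mean ratios of 3.76 in KO epidermis against 6.83 in KO tongue. In WT pups they were 3.45 in epidermis against 7.74 in tongue. The exact p was 0.0571 in both genotypes, and tongue KO 3, at 4.33, lay within the KO epidermis range of 3.17 to 5.44. Between these laminin-332 chains, Lama3 to Lamb3 had geometric mean ratios of 1.499 in KO epidermis against 1.26 in KO tongue. In WT pups they were 2.02 in epidermis against 1.38 in tongue. The WT epidermis value was raised by WT 1, at 3.18, while WT 2 and WT 3 had 1.465 and 1.76. The lowest epidermis ratio lay within the tongue range in both genotypes, 1.33 within 1.14 to 1.39 in KO and 1.465 within 1.28 to 1.53 in WT pups. Over the 20 ratio tests the adjusted p values of these 6 ran from 0.229 to 0.327, and none passed. With so few libraries no exact test here could pass after adjustment, so this outcome decides nothing about the ratios.

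No anchorage gene passed the threshold between knockout and wild-type pups in epidermis. In epidermis the log2 fold changes of KO over WT were 0.53 for Itga3, 0.50 for Lamb3, 0.31 for Plec, 0.28 for Col17a1, 0.21 for Dst, 0.18 for Itgb4, 0.17 for Itga6, 0.13 for Col7a1 and 0.11 for Lama3. All 9 lay above 0 on the TMM scale and 4 of 9 when scaled to basal keratinocyte genes. The median was 0.21 on the TMM scale, against 0.00 over all genes tested, and 0 of 9 were called at an adjusted p of 0.9998 each. The share called over all 16073 genes tested was 0%, and 187 genes, none of the 9 among them, had an unadjusted p below 0.05. That is fewer than a cut-off of 0.05 gives with no difference at all. This fit also called none of the 6 targeted protease genes analysed, so a gene without a call is not shown to be unchanged. DESeq2 called 1 gene and limma-voom 0, again with 0 of the 9. For the highest, Itga3 averaged 87.4 ± 28.9 CPM in KO and 60.4 ± 19.8 CPM in WT epidermis (SD, n = 4 and 3), and 2 of the 4 KO libraries lay above all WT libraries. The 95% interval of Itga3 ran from -0.14 to 1.19, that of Dst from -0.55 to 0.98 and that of Lama3 from -0.36 to 0.59, so these intervals hold differences in either direction. Several values rested on 1 library. Without KO 3, Itga6 had 0.0072 and Dst 0.033, and without KO 4, Itgb4 had 0.0060, Lama3 0.0050 and Dst 0.057. Lamb3 averaged 143 ± 40.0 CPM in KO and 101 ± 37.4 CPM in WT epidermis, and its WT 1 library was the lowest of the 7 at 62.4 CPM. Without epidermis WT 1, the median of the 9 was 0.15 and the values of Itga3 and Lamb3 were 0.31 and 0.25.

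In tongue the log2 fold changes of KO over WT were 0.47 for Plec, 0.43 for Itgb4, 0.31 for Itga3, 0.23 for Col7a1, 0.22 for Dst, 0.20 for Lamb3, 0.12 for Col17a1, 0.06 for Lama3 and -0.14 for Itga6. None of the 9 was called, with adjusted p of 0.939 for 8 of them and 0.953 for Lama3, against 0.0127% of the 15741 genes tested. The 2 genes called were Tmprss11a and Tmprss11b, and 496 genes had an unadjusted p below 0.05, again with none of the 9. DESeq2 called 4 genes and limma-voom 2, with 0 of the 9. The larger values rested on tongue KO 3. Without it, Itgb4 had -0.10, Plec -0.075, Col17a1 -0.058, Lama3 -0.030 and Col7a1 -0.0085, and the median of the 9 was -0.030 in place of 0.22. Itga6 had -0.16 without it, with means of 116 ± 6.13 CPM in KO and 126 ± 6.75 CPM in WT tongue (SD, n = 4 each).

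**Figure D4:**
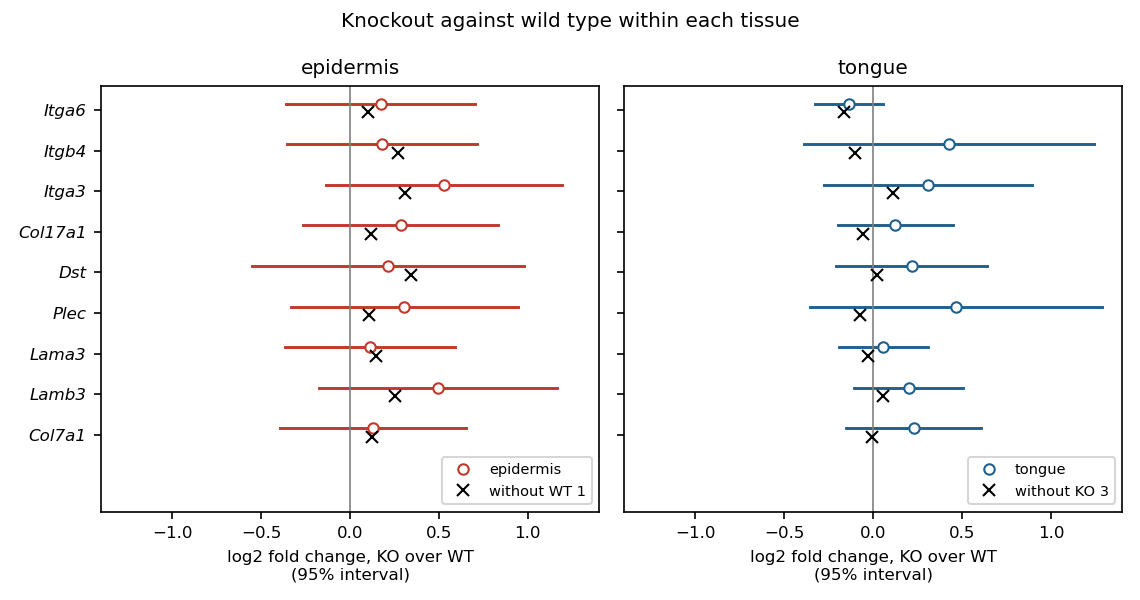
Log2 fold change of KO over WT (x axis) with 95% intervals for the 9 genes in epidermis (left panel) and tongue (right panel). Crosses give the value without the library that stood apart, WT 1 in epidermis and KO 3 in tongue. All intervals include 0, and in tongue the crosses lie between -0.16 and 0.11.

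The effect of the knockout was not shown to differ between the tissues either. The difference of the log2 fold changes, epidermis minus tongue, was 0.33 for Itga6, 0.31 for Lamb3, 0.24 for Itga3, 0.18 for Col17a1, 0.08 for Lama3, 0.02 for Dst, -0.07 for Col7a1, -0.13 for Plec and -0.22 for Itgb4. No gene was called, 0% of 17935, and 299 had an unadjusted p below 0.05, none of them an anchorage gene. DESeq2 called 1 gene and limma-voom 0, with 0 of the 9.

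The animal numbers form 3 ranges (A32x, A34x and A38x), whose meaning the labels leave unstated. Among the 4 epidermis libraries of the A38x range alone, 2 KO and 2 WT, Dst was called higher in KO epidermis with a log2 fold change of 0.74 and an adjusted p of 0.0113, against 2.37% of all genes called higher. The other 8 genes lay between 0.03 and 0.62 and were not called, while 604 genes were called in all. Between the tissues, the A38x libraries called 8 of the 9 genes higher in epidermis in KO pups, where Plec had 0.43 with an adjusted p of 0.425, and 9 in WT pups. The share of all genes called higher in these libraries was 24.9% in KO and 33.9% in WT pups. The Dst values behind this were 2200.3 and 2049 CPM in KO epidermis, against 1337 and 1188 CPM in WT epidermis, whereas the remaining KO libraries had 1278 and 862 CPM and the remaining WT library had 1569 CPM. With the range as a block over all 7 epidermis libraries, 0 of the 9 genes and 1 gene in all were called. In tongue the A38x libraries gave 15 called genes, 0.0939% of those tested, and none of the 9, and the A32x and A34x ranges held too few libraries for a value of their own.

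Markers of other cell types also varied between the epidermis groups. The 10 skeletal muscle genes had a median log2 fold change of KO over WT of 1.16, with sums of 110.2 to 758 CPM in KO and 114 to 287 CPM in WT epidermis. That median rested on KO 2, the library with 758 CPM, and without it was 0.36, with 9 of the 10 genes above 0. The 5 melanocyte genes had a median of 0.58, with sums of 82.9 to 149 CPM in KO and 48.9 to 100.4 CPM in WT epidermis, and no gene of either list was called. Without KO 1 that median was 0.33, and without WT 1 it was 0.39. The 4 basal keratinocyte genes had a median of 0.22, with sums of 4485 to 5692 CPM in KO and 3153 to 6060 CPM in WT epidermis, where WT 1 was the lowest, and without WT 1 their median was 0.025. None of these markers was at 0 in any of these groups, and their part in the values above was not tested. Scaled to the basal keratinocyte genes, the 9 anchorage genes had a median of -0.10 in epidermis, with 5 of them below 0, while the median of all genes was -0.25.

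Other genes of the basement membrane moved in both directions between the tissues. Their directions are given on the TMM scale. Scaling to the basal keratinocyte genes moved log2 values down by amounts that varied from gene to gene and lay near the medians given above. Of 7 genes for associates of the hemidesmosome, 5 were higher and 2 lower in epidermis in KO pups, and 4 were higher and 2 lower in WT pups. Lad1, which encodes the anchoring filament protein ladinin, had 2.13 in KO and 1.92 in WT pups. Fermt1, which encodes kindlin-1, the integrin activator lost in Kindler syndrome, had 2.89 in KO and 2.47 in WT pups. Krt5 and Krt14, described above, are also on this list. The 2 lower genes were Itgb1, the β1 partner of α3, at -2.37 in KO and -2.60 in WT pups, and Cd151, a tetraspanin bound to laminin-binding integrins, at -1.41 in KO and -1.66 in WT pups. Itgb1 averaged 122 ± 34.8 CPM in KO epidermis, against 630.4 ± 45.8 CPM in KO tongue.

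Other laminin chains were mostly lower in epidermis, with 5 of 8 lower and 2 higher in both genotypes. Lama2, the muscle laminin chain, had a log2 fold change of -6.42 in KO and -6.57 in WT pups, Lamb1 had -2.67 and -2.97, and Lamc1, a γ chain shared by most laminins, had -1.41 and -1.52. Lama5, the α5 chain, made by basal keratinocytes, went the other way, with 282 ± 87.4 CPM in KO epidermis, against 53.1 ± 28.5 CPM in KO tongue, and log2 fold changes of 2.41 in KO and 2.85 in WT pups. Among 12 genes of collagen IV and its linkers, 3 were higher and 7 lower in KO pups and 2 higher and 6 lower in WT pups. Col4a1, a ubiquitous collagen IV chain, had -2.80 in KO and -2.99 in WT pups, and Nid1, the laminin linker nidogen-1, had -4.46 and -4.50. Agrn, the proteoglycan agrin, had 1.63 and 1.77. Of 8 genes of the Fraser complex and the layer below the basement membrane, 4 were higher and 3 lower in both genotypes, with Fras1, whose product bridges epidermis and dermis in the embryo, at 1.48 in KO and 1.39 in WT pups and Npnt, the α8β1 ligand nephronectin, at -1.77 and -1.81.

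**Figure D5:**
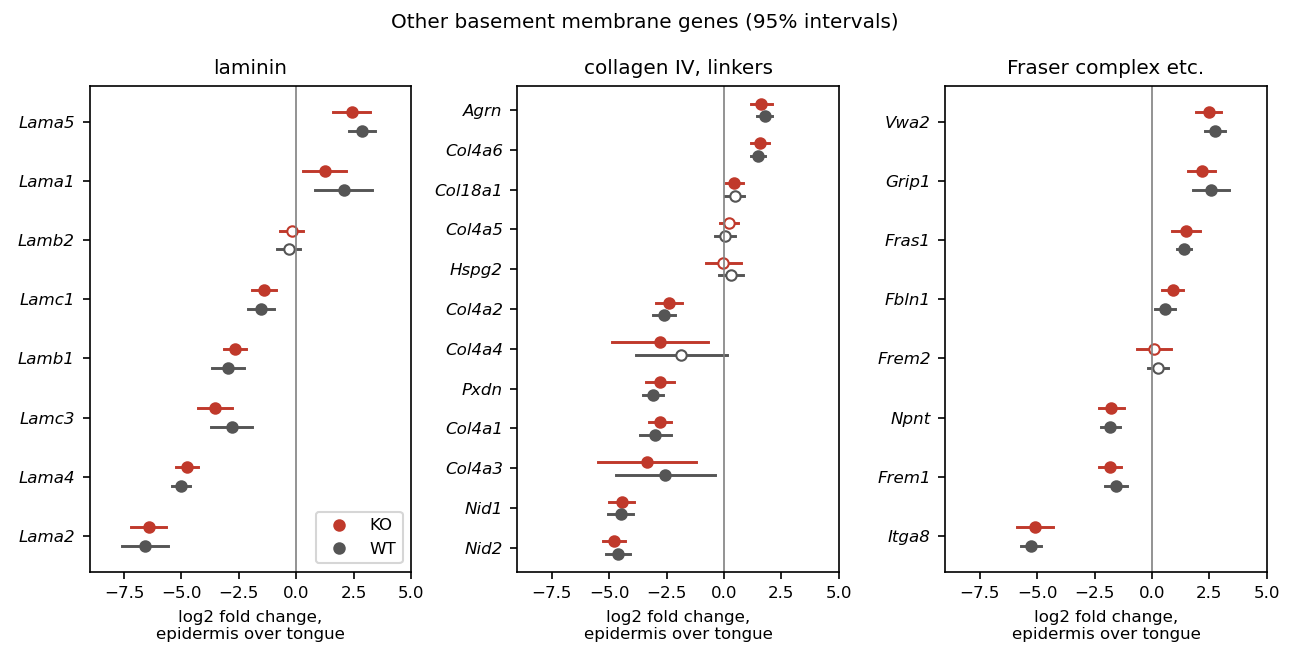
Log2 fold change of epidermis over tongue (x axis) with 95% intervals in KO (red) and WT (grey) pups for other laminin chains, collagen IV with its linkers, and the Fraser complex group. Filled points passed the threshold. Lama5, Agrn and Fras1 lie above 0 and Lama2, Col4a1 and Nid1 lie below it in both genotypes.

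Receptors and enzymes around the junction were mixed. Of 15 other matrix receptors, 6 were higher and 7 lower in KO pups and 2 higher and 7 lower in WT pups, among them Sdc1, the proteoglycan syndecan-1, at 1.17 in KO and 1.04 in WT pups and Dag1, dystroglycan, at -0.49 and -0.67. Focal adhesion genes, which serve β1 integrins, were lower in epidermis in 10 of 11 cases in both genotypes and higher in 0. Tln1, talin, had -0.74 in KO and -0.82 in WT pups, and Lims1, the partner of integrin-linked kinase, had -2.19 and -2.22. Of 12 genes for proteases that process or shed these proteins, 3 were higher and 5 lower in KO pups and 2 higher and 5 lower in WT pups. Furin, a convertase that cleaves integrin α chains and type XVII collagen sheddases, had 2.01 in KO and 1.97 in WT pups, and Mmp2 had -2.46 and -2.80. Genes for the assembly and crosslinking of collagens were lower in 8 of 9 cases in KO and 7 of 9 in WT pups and higher in 0, with Lox at -5.61 and -6.71 and Serpinh1, the collagen chaperone HSP47, at -2.37 and -2.63. Fibroblast genes were lower in epidermis in 8 of 8 cases and endothelial genes in 7 of 7, in both genotypes, with summed fibroblast levels of 676 to 886 CPM in KO epidermis, against 7428 to 8290 CPM in KO tongue. In WT pups those sums were 460.3 to 781 CPM in epidermis, against 6799 to 8045 CPM in tongue, and the part of these cells in the lower genes was not tested. Between genotypes, no gene of any of these groups was called in either tissue.

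Correlations among the 9 genes are given as a description, and no other set of genes was put beside them. Over the 36 pairs, Pearson correlations of log2 CPM across the 15 libraries ran from 0.75 to 0.99 with a median of 0.93, a description that mostly carries the tissue difference. After each group's mean was subtracted they ran from -0.17, between Itga6 and Col7a1, to 0.93, between Col17a1 and Lamb3, with a median of 0.55. Libraries of the same group share their depth and scaling with all genes, and tongue KO 3 is among the 15 points. Of the 11338 genes at 5 CPM or more, the 5 with the pattern most like the mean of the 9 over the 15 libraries were Megf6, Dgcr6, Eef2k, Ddi2 and Gramd4, with r from 0.987 to 0.990. After group means were subtracted, they were Lamb2, Megf6, Sun2, Soga1 and Dgcr6, with r from 0.901 to 0.928.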

How the data were processed

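The data were RNA-seq libraries of epidermis and tongue. Per the labels' protocols, RNA was copied with the SMARTer V4 low-input kit before TruSeq v2 library preparation. The submitters' processing notes name the aligner STAR 2.5.2a and the build GRCm38.p3 (mm10). Sources used here do not state the read counter, its strand setting or its annotation. The authors deposited a table of raw counts of reads per gene, which was tested here, and a table of signal values, which equal the counts over 1 constant per library, as for CPM on a TMM-scaled library size. The signal table was used for gene symbols. Of its 23422 entries, 2 transgene sequences were left out.

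Each comparison was fitted with edgeR 4.0.16 in R 4.3.3 (quasi-likelihood, robust, two-sided) after filterByExpr (minimum count 10) and TMM scaling, with Benjamini-Hochberg adjustment over all genes tested and a threshold of 0.05. Log2 fold changes come from each comparison's own fit. DESeq2 1.42.0, limma-voom (limma 3.58.1), RLE factors, no filter, no mitochondrial ribosomal RNA, scaling to Krt5, Krt14, Krt15 and Trp63, blocks, the A38x range alone and leaving out each library were alternatives. The scripts were tested on simulated counts. Coordinates and exon lengths are from GENCODE M21 on GRCm38. Ratios were tested with exact permutation tests on log2 values.

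The anchorage genes and gene lists were chosen with earlier results of these data known. All 9 anchorage genes are named. From each list up to 3 called genes of highest mean CPM were to be named, not all of which are printed. Lad1, Fermt1, Cd151, Lama5 and Nid1 were added after their values were seen. Eppk1, Cd207 and Tmprss11c were not analysed here, and 1 further gene is not reported here.

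The animal numbers tie the KO tissues by pup, so their block is by animal. Replicate numbers of KO and WT epidermis name different pups. Deviations of same-numbered libraries from their group means had r = 0.65, 0.17 and 0.50, and a blocked fit treated these libraries as pairs. Differently numbered libraries were not compared, so these values do not show that the numbers mark pairs. No label states separate litters, so a p-value here reflects only how these samples vary. Replicate pairs differed by more than sampling noise, and none was merged.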

Additional observations from a re-analysis of the deposited data

Results flagged for a closer look

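In tongue KO 3, 4 of the 9 genes lay far above the other 3 KO tongue libraries, by a test for a single distant value in groups of 4. Itgb4 had 49.8 CPM, against 14.9 to 20.8 CPM in the others. Col17a1 had 185 CPM, against 116 to 120.4 CPM in the others. Col7a1 had 81.6 CPM, against 44.5 to 50.2 CPM in the others. Plec had 532 CPM, against 172 to 215 CPM in the others. Of 27 combinations of a gene and a group looked at, 4 were marked, all of them in this library. Chance would mark about 1.35 if the combinations were independent. Genes of 1 library are not independent, so these counts cannot be set against each other. The basal keratinocyte genes summed to 1010 CPM in tongue KO 3, within the 883 to 1034 CPM of the other KO tongue libraries, and the skeletal muscle genes to 55858 CPM, against 34314 to 54084 CPM in the others. Other lists stood apart in it as well. The Fraser complex group summed to 744 CPM, against 419 to 524 CPM in the others, and collagen IV with its linkers to 2477 CPM, against 1720.1 to 1974 CPM. Suprabasal keratinocyte genes summed to 1024 CPM, against 1228 to 1354 CPM in the others, immune genes to 71.1 CPM, against 89.2 to 99.9 CPM, and adipocyte genes to 86.9 CPM, against 131 to 259 CPM. Their part in these values was not tested. Without this library, the log2 fold changes of KO over WT tongue were -0.10 for Itgb4, -0.058 for Col17a1, -0.0085 for Col7a1 and -0.075 for Plec.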

How the results depend on the processing

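No alternative changed the call of the 9 genes between genotypes, apart from Dst in the A38x epidermis libraries (1 of 9 called there). Genes called in epidermis numbered 1 with DESeq2, in the fit over all 15 libraries, with a block for the A-number range and without the A32x epidermis libraries (added after seeing the data), and 604 with the A38x libraries alone, against 0. In tongue they numbered 4 with DESeq2 and 15 with the A38x libraries, against 2. For the difference between tissues they numbered 1 with DESeq2 and without the A32x epidermis libraries, 19 with the A38x libraries and 0 to 1 when leaving out each library, against 0.

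With a replicate block, 0 genes and 0 of the 9 were called in epidermis, where Dst had -0.018, and 2 genes and 0 of the 9 in tongue, where same-numbered libraries did not all deviate together (r from -0.14 to 0.58). Blocked by animal, 9 of 9 were called between tissues in both genotypes. Of all genes tested with this block, 10153 of 16398 were called in KO and 11290 of 16577 in WT pups. Among WT pups only animals of the A38x range gave both tissues, so the blocked WT difference rests on those pups alone. The animal block turned the difference of the knockout effect, epidermis minus tongue, for Itga3 from 0.24 to -0.31, and it changed no call of the 9.

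Scaled to basal keratinocyte genes, 3 of 9 were called between tissues in each genotype, against 90.4% of all genes in KO and 77.9% in WT pups. Log2 values that turned were -0.82 for Itga6, -0.064 for Col17a1, -0.95 for Dst, -1.17 for Plec and -0.21 for Lamb3 in KO pups, and -0.74 for Itga6, -0.50 for Dst, -0.75 for Plec and -0.21 for Lamb3 in WT pups. For KO over WT epidermis they were -0.10 for Itga6, -0.10 for Itgb4, -0.12 for Col7a1, -0.13 for Dst and -0.18 for Lama3. For the difference of these effects they were -0.080 for Itga6, -0.076 for Itga3, -0.16 for Col17a1, -0.45 for Dst and -0.35 for Lama3. That difference also turned with limma-voom (-0.062 for Dst, 0.099 for Plec), with no filter (-0.0053 for Dst) and in the A38x libraries (-0.15 for Itga3). The cause was not tested.

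Leaving out each library in turn, 8 to 9 of the 9 were called between tissues in KO pups, where 9683 to 10548 of all genes were called. The values for KO over WT ran as follows. In epidermis Col7a1 ran from -0.017 to 0.30, Itga6 from 0.0072 to 0.27, Itgb4 from 0.0060 to 0.28, Dst from 0.033 to 0.41, Lama3 from 0.0050 to 0.20, Plec from 0.11 to 0.69, Col17a1 from 0.11 to 0.46, Itga3 from 0.30 to 0.74 and Lamb3 from 0.25 to 0.76. In tongue Itgb4 ran from -0.10 to 0.62, Col17a1 from -0.058 to 0.19, Col7a1 from -0.0085 to 0.32, Plec from -0.075 to 0.64 and Lama3 from -0.030 to 0.12. The difference between tissues ran from -0.41 to 0.31 for Itgb4, -0.22 to 0.16 for Col7a1, -0.16 to 0.21 for Dst, -0.33 to 0.41 for Plec and -0.012 to 0.16 for Lama3.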

Other observations

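Genes of other cell types of the skin and tongue surface also differed between the tissues. Melanocyte genes, whose cells sit among basal keratinocytes, were higher in epidermis in 5 of 5 cases in both genotypes, with summed levels of 82.9 to 149 CPM in KO epidermis, against 0.666 to 1.09 CPM in KO tongue, and 48.9 to 100.4 CPM in WT epidermis, against 0.377 to 0.795 CPM in WT tongue. Hair follicle genes were higher in epidermis in 5 of 6 cases in both genotypes. Tongue epithelium genes, such as those for the keratins of oral mucosa, were lower in epidermis in 8 of 9 cases in both genotypes, with sums of 344 to 1799 CPM in KO epidermis, against 10091 to 13409 CPM in KO tongue.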
